A study of Mus musculus with 12 samples.

Results

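The TGF-β ligands, receptors and SMADs are described here in transplanted mouse mammary tumors sampled at 3 days of treatment. The members were the rows of the deposited table whose symbol is Tgfb1, Tgfb2, Tgfb3, Tgfbr1, Tgfbr2, Smad2, Smad3 or Smad4. All 8 were found among the 750 genes of the table, and all 8 passed the filter on low values that left 689 genes for testing.

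The 12 tumors fell into 4 groups of 3. They came from the model labelled K14-Cre;Brcaf/fTrp53f/f (K14-Cre-Brca1f/f;Trp53f/f in the study's methods), in which Cre driven by the keratin 14 promoter deletes floxed Brca1 and Trp53 in epithelium, and were grown as mammary fat pad transplants in FVB/129P2 females, a syngeneic host with its own immune system, whose age is not given in the sources used here. Vehicle mice received diluted DMSO intraperitoneally and saline into the tumor, ADU-S100 mice received 50 μg of this cyclic dinucleotide STING agonist in one 40 μl intratumoral injection on the first day with intraperitoneal DMSO, Olaparib mice received 50 mg/kg of this PARP inhibitor intraperitoneally each day with saline into the tumor, and Olaparib+ADU-S100 mice received both drugs. Every tumor thus carries the same engineered deletions, Vehicle included, and nothing in the sources says whether the transplants came from one donor tumor or several. The tumors are named by the numbers in their labels, which begin with 12 in 3 tumors (Vehicle 1269 and Olaparib+ADU-S100 1251 and 1270) and with 15 in the other 9, with no statement of what the numbers mean.

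TGF-β ligands are secreted in a latent form that is bound to matrix and must be activated. The active ligand binds the type II receptor, encoded by Tgfbr2, which recruits and phosphorylates the type I receptor, encoded by Tgfbr1. The type I receptor phosphorylates SMAD2 and SMAD3, and these join SMAD4 to enter the nucleus and act on target genes. In carcinomas the pathway is known for limiting epithelial growth, for matrix production by fibroblasts and for restraining T cells. Activation happens at the protein level, so mRNA values describe how much of the machinery is transcribed and say nothing of signaling.

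Levels were measured on the nCounter immune panel, which counts probes bound to RNA one molecule at a time with no amplification (100 ng of RNA per tumor), and are given as normalized counts. Each member has its own probe, so levels are compared between tumors and not between genes. The counts behind the values were recovered as whole multiples of a scaling factor per tumor, and every value below 1000 counts came out whole within 0.01 of a count in each tumor. A different check, which takes the smallest deposited value of a tumor as 1 count, failed in 7 of 12 tumors, where 17.1% to 32.8% of low values came out whole. In 5 of them the smallest value is the floor of 1, and in the other 2 it is 2 counts of the factor used here. The recovered counts therefore describe depth only, and no count test was run. The recovered totals were 632152 to 1519471 in Vehicle tumors, 372390 to 683982 in ADU-S100 tumors, 106206 to 1392128 in Olaparib tumors and 1339258 to 1491854 in combination tumors. Olaparib tumor 1517 stood apart with the lowest total, a factor of 10.5 against 0.589 to 2.85 in the other tumors, and 333 of 750 genes at 20 counts or fewer. The members were well counted even there, with recovered counts in that tumor from 33 for Tgfb2 to 450 for Tgfbr2. Of the epithelial markers, Epcam and Cdh1 were measured in every tumor with at least 437 and 550 recovered counts, and the keratins on the list were not analysed here. In bulk tumor RNA, fewer cells of a type and less RNA per cell cannot be told apart.

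The 2 ligand genes that mark the ends of the range among the members are shown by the 250 bases before a RefSeq start site (GRCm38.p6), 5′ to 3′ on the strand of the gene, with motif matches in capitals. The Tgfb1 stretch is chr7:25686752-25687001 on the plus strand and ends just before the first base of the annotated gene. The Tgfb2 stretch is chr1:186705990-186706239 on the minus strand, and its start site lies 3708 bases inside the annotated gene.

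Tgfb1: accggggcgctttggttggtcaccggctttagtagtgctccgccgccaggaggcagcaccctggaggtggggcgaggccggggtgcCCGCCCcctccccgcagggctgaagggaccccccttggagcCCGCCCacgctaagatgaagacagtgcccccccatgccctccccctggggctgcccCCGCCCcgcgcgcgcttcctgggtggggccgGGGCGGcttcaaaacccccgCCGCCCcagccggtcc

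Tgfb2: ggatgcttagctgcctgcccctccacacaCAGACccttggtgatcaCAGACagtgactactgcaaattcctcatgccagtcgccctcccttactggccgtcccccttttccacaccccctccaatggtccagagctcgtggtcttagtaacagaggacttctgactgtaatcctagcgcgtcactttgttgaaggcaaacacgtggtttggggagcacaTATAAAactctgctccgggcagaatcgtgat

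The stretches were searched on both strands for 6 motifs. The Tgfb1 stretch was 75.2% G and C and held 5 matches to the GC box GGGCGG, which 32.7% of the 32851 stretches of this length in the RefSeq table hold. The Tgfb2 stretch was 53.6% G and C and held the TATA box TATAAA at position -31 from the start site, a word found in 12.4% of stretches. It also held 2 matches to the SMAD-binding word CAGAC, found in 42.2% of stretches. No match overlapped another, and neither stretch held TGACGTCA, TGANTCA or TTCNNNGAA. Windows were found for 5 members and are a description of the letters alone. Tgfbr2 and Smad3 lie on chromosome 9, Tgfbr1 on chromosome 4, Tgfb3 on chromosome 12, and Smad2 and Smad4 on chromosome 18.

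Among all members, Tgfb2 was the one whose level moved most from tumor to tumor, and Tgfb1, Smad4 and Tgfbr1 were the steadiest. The highest tumor was 16.1 times the lowest for Tgfb2, 4.37 times for Smad3, 3.26 for Tgfb3, 3.02 for Smad2, 2.88 for Tgfbr2, 1.95 for Tgfbr1, 1.82 for Smad4 and 1.72 for Tgfb1. The median of this ratio over the 689 genes tested was 7.14, so only Tgfb2 lay above it. The wide spreads of Tgfb2 and Smad3 rested on Olaparib tumor 1517, without which they were 5.27 and 2.21 times, against a median of 5.24 over all genes in the same 11 tumors. Smad2 (3.02) and Tgfbr2 (2.88) then came next after Tgfb2, whose spread was close to that median. No member passed the moderated F test of limma for any difference among the 4 groups, with Benjamini-Hochberg adjusted p from 0.662 for Tgfb2 to 0.988 for Tgfb3. At an unadjusted p under 0.05 this test called 0 of 8 members and 7.55% of all genes (52 genes), and after adjustment it called 0 of the 689 genes.

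**Figure D1:**
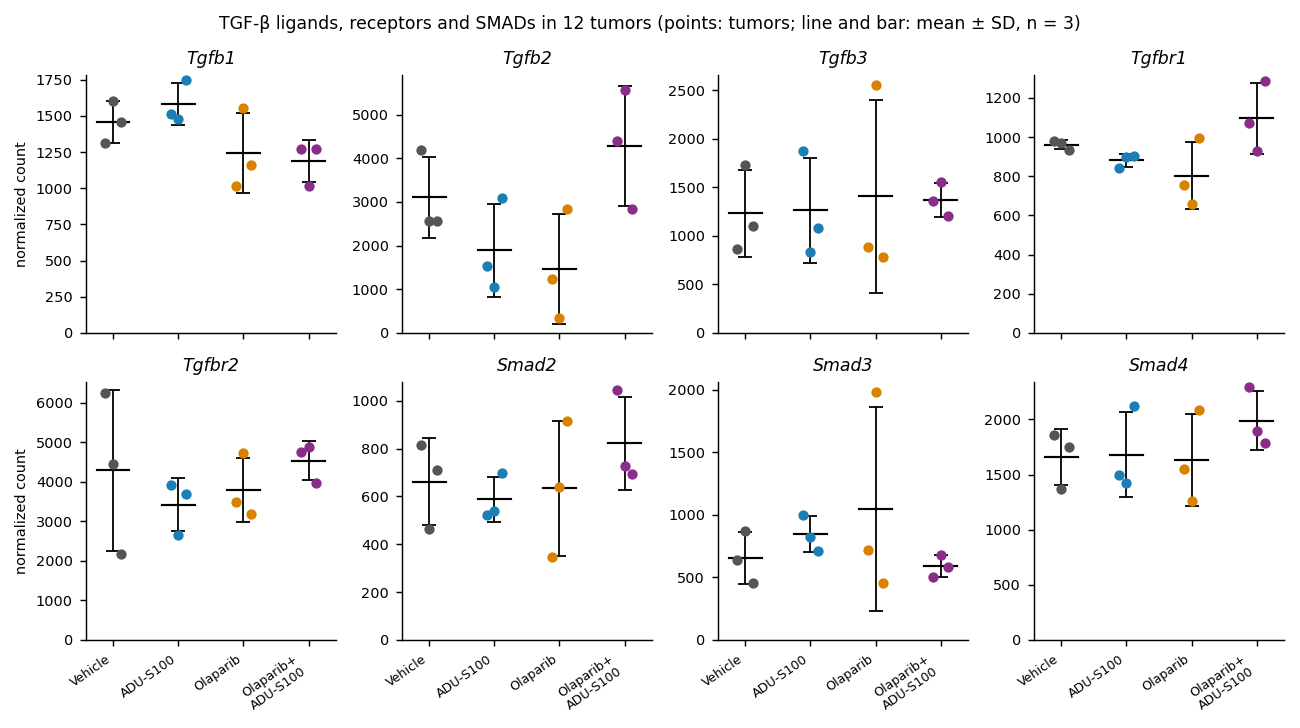
Normalized count (linear axis from 0) of each member in the 12 tumors by treatment group, with each tumor as a point and the mean ± SD of 3 tumors as a line and bar. The Tgfb2 values run from 346 to 5576, while those of Tgfb1 stay between 1015 and 1746.

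Tgfb1 encodes the ligand that is most widely expressed in immune and stromal cells. Its normalized counts were 1314, 1606 and 1457 in Vehicle tumors 1269, 1529 and 1536. They were 1510, 1481 and 1746 in ADU-S100 tumors 1506, 1512 and 1513. They were 1015, 1551 and 1158 in Olaparib tumors 1510, 1517 and 1521, and 1273, 1017 and 1270 in combination tumors 1251, 1270 and 1539. The 3 combination tumors lay below every Vehicle and every ADU-S100 tumor, and the Olaparib tumors overlapped all other groups. Group means were 1579 ± 146 with ADU-S100, 1459 ± 146 with Vehicle, 1241 ± 278 with Olaparib and 1187 ± 147 with the combination (SD, n = 3), and neighbours in this order overlapped. The combination differed from Vehicle by -0.30 on the log2 scale (95% confidence interval -1.02 to 0.42, limma adjusted p = 0.969) and from ADU-S100 by -0.42 (-1.14 to 0.31, adjusted p = 0.657). Over 20 alternative settings the first ran from -0.51 with quantile normalization to -0.19 without combination tumor 1270, and the second from -0.47 without combination tumor 1251 to -0.21 with each tumor scaled to the same median. Groups that did not overlap made up 20% of all genes for the combination against Vehicle, with 1.6% lower as Tgfb1 was, and 31.3% for the combination against ADU-S100, with 20.9% lower. With each tumor scaled to the same median, Tgfb1 overlapped in both.

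Since every combination tumor lay below every Vehicle tumor in Tgfb1, the same order had to hold within each number series, and the split adds no support. Among tumors numbered from 12 the Vehicle tumor had 1314 and the combination tumors had 1017 and 1273. Among those numbered from 15 the combination tumor had 1270 and the Vehicle tumors had 1457 and 1606.

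Tgfb2 encodes a ligand that depends on the co-receptor betaglycan to bind the type II receptor. Its normalized counts were 4183, 2562 and 2575 in Vehicle tumors 1269, 1529 and 1536, and 1527, 1057 and 3092 in ADU-S100 tumors 1506, 1512 and 1513. They were 1227, 346 and 2830 in Olaparib tumors 1510, 1517 and 1521, and 4408, 5576 and 2841 in combination tumors 1251, 1270 and 1539. The lowest combination tumor stood just above the highest Olaparib tumor, at 2841 against 2830, and the combination range overlapped those of Vehicle and ADU-S100. Group means were 4275 ± 1372 with the combination, 3107 ± 933 with Vehicle, 1892 ± 1065 with ADU-S100 and 1468 ± 1259 with Olaparib (SD, n = 3). Neighbours in this order overlapped.

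The combination exceeded Olaparib in Tgfb2 by 1.95 on the log2 scale, a fold of 3.87, with a standard error of 0.70 and a 95% confidence interval of 0.43 to 3.48. The unadjusted p was 0.0167 and the limma adjusted p was 0.594. Tgfb2 was the 1 member of 8 with an unadjusted p under 0.05 in this comparison, against 7.26% of all genes, and the 1 member whose groups did not overlap, against 12.8% of all genes (11% higher, the direction of Tgfb2), although with each tumor scaled to the same median these groups overlapped. Neither single treatment passed, at -0.82 for ADU-S100 against Vehicle (adjusted p = 0.809 in limma) and -1.51 for Olaparib against Vehicle (adjusted p = 0.582), where the interval of -3.03 to 0.02 covered a wide span. The combination against Vehicle gave 0.45 (-1.08 to 1.97, adjusted p = 0.989), and 0.20 to 0.71 over the alternatives.

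Neither comparison of Tgfb2 with and without ADU-S100 passed the test, and the interaction that sets the one against the other was 2.77 (standard error 0.98, interval 0.62 to 4.93). Its unadjusted p was 0.0163 and its limma adjusted p 0.346. Tgfb2 was the 1 member of 8 with an unadjusted p under 0.05 for the interaction, against 10.9% of all genes. The value rested on single tumors. Without Olaparib tumor 1521, which had the highest Tgfb2 of its group, the combination exceeded Olaparib by 2.66 (adjusted p = 0.0319) and the interaction was 3.48 (adjusted p = 0.0285), both past the threshold. Without Olaparib tumor 1517 the difference was 1.14 (adjusted p = 0.690) and the interaction 1.97. With the log2 scaling factor as a term the difference was 0.90 and the interaction 0.89, and with the number series as a term the difference was 1.45 (adjusted p = 0.980). All Olaparib tumors are numbered from 15, and the 1 combination tumor of that series, 1539, is the one at 2841. The tumors numbered from 12 had the highest Tgfb2 values, at 5576 and 4408 in combination tumors 1270 and 1251 and 4183 in Vehicle tumor 1269.

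**Figure D2:**
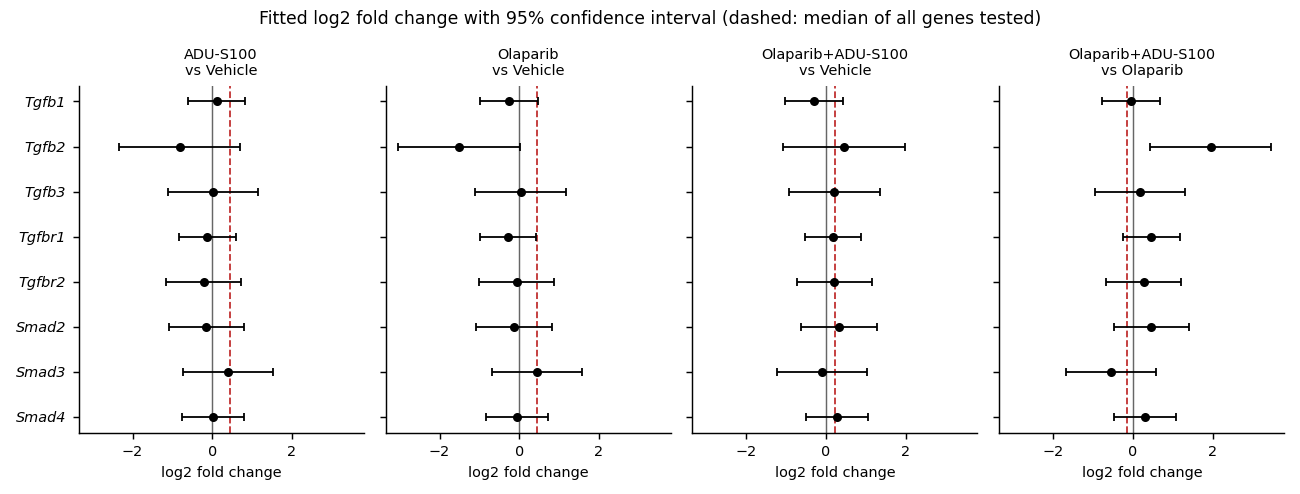
Fitted log2 fold change (x axis) of each member in 4 comparisons, with the 95% confidence interval as a bar, 0 as a solid line and the median of the 689 genes tested as a dashed line. The interval for Tgfb2 in the combination against Olaparib, 0.43 to 3.48, is the one that leaves out 0.

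The scaling factor cancels in the ratio of Tgfb2 to Tgfb1 within a tumor, which was chosen after the values were seen and has no test. It was 3.18, 1.60 and 1.77 in Vehicle tumors 1269, 1529 and 1536, and 1.01, 0.714 and 1.77 in ADU-S100 tumors 1506, 1512 and 1513. It was 1.21, 0.223 and 2.44 in Olaparib tumors 1510, 1517 and 1521, and 3.46, 5.48 and 2.24 in combination tumors 1251, 1270 and 1539. Combination tumors 1270 and 1251 had the highest ratios, followed by Vehicle tumor 1269, and these are all the tumors numbered from 12. Combination tumor 1539, numbered from 15, lay below Olaparib tumor 1521 and Vehicle tumor 1269. The part of the number series in the ratio was not tested. Low ratios still went with high factors, at 0.223 in tumor 1517 (factor 10.5), 1.01 in tumor 1506 (2.85) and 0.714 in tumor 1512 (1.96), while the combination tumors all had factors of 0.810 to 0.824, and the part of the factor in the ratio was not tested. The mean ratio was 3.73 with the combination, 2.18 with Vehicle, 1.29 with Olaparib and 1.17 with ADU-S100.

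Tgfb3 encodes the third ligand, known for its part in palate development and wound repair. Normalized counts of Tgfb3 were 866, 1732 and 1099 in Vehicle tumors 1269, 1529 and 1536, and 1874, 839 and 1083 in ADU-S100 tumors 1506, 1512 and 1513. They were 883, 2557 and 783 in Olaparib tumors 1510, 1517 and 1521, and 1362, 1554 and 1204 in combination tumors 1251, 1270 and 1539. One tumor in each group but the combination was far above its partners, and all 4 ranges overlapped. Means were 1408 ± 997 with Olaparib, 1373 ± 175 with the combination, 1265 ± 541 with ADU-S100 and 1232 ± 448 with Vehicle (SD, n = 3). The combination differed from Vehicle by 0.21 (95% confidence interval -0.93 to 1.35, limma adjusted p = 0.989), and by -0.026 with quantile normalization to 0.49 without Vehicle tumor 1529 over the alternatives.

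The 3 tumors highest in Tgfb3 were also the 3 with the most endothelial marker RNA. The summed normalized counts of Pecam1, Cdh5, Kdr, Tek and Vwf were 21137 in Olaparib tumor 1517, 7071 in Vehicle tumor 1529 and 5890 in ADU-S100 tumor 1506, and 403 to 1590 in the other 9 tumors, where Tgfb3 was 783 to 1554. Because these 3 tumors stood apart, the relation is given over the other 9, where Pearson's r was 0.57 (exact permutation p = 0.106) and Spearman's rho 0.57 (exact permutation p = 0.121), and r was 0.45 without the 2 tumors farthest from the median. The scaling factors of these 3 tumors were 10.5, 1.49 and 2.85 in the order given above, and they also had the 3 highest medians over all genes tested (8.71, 8.12 and 8.62 on the log2 scale, against at most 7.70 in the others). With every tumor scaled to the same median they were still the 3 highest in the endothelial list, but ranked 7, 4 and 10 of 12 in Tgfb3, where combination tumor 1270, Vehicle tumor 1536 and combination tumor 1251 were highest. The match of the 3 tumors thus did not hold under that scaling, while over the other 9 tumors Pearson's r was 0.69. That scaling subtracts the same median from both values of a tumor. The part of endothelial RNA in the Tgfb3 values was not tested.

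Tgfbr1 encodes the type I receptor kinase, also called ALK5, which passes the signal to SMAD2 and SMAD3. Its normalized counts were 978, 968 and 935 in Vehicle tumors 1269, 1529 and 1536, and 840, 898 and 903 in ADU-S100 tumors 1506, 1512 and 1513. They were 756, 660 and 993 in Olaparib tumors 1510, 1517 and 1521, and 1070, 929 and 1286 in combination tumors 1251, 1270 and 1539. The ADU-S100 tumors lay below every Vehicle and every combination tumor, and the Vehicle tumors were within a narrow band. Means were 1095 ± 180 with the combination, 960 ± 22.4 with Vehicle, 880 ± 34.9 with ADU-S100 and 803 ± 171 with Olaparib (SD, n = 3), and in this order Vehicle and ADU-S100 were the neighbours that did not overlap.

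The difference between ADU-S100 and Vehicle in Tgfbr1 was -0.13 on the log2 scale (95% confidence interval -0.84 to 0.59, limma adjusted p = 0.948). Tgfbr1 was the 1 member of 8 whose groups did not overlap in this comparison, against 14.9% of all genes and 1.02% in its direction, lower with ADU-S100. With each tumor scaled to the same median its groups overlapped. The combination differed from ADU-S100 by 0.30 (-0.41 to 1.02, adjusted p = 0.722) and from Vehicle by 0.18 (-0.54 to 0.89, adjusted p = 0.989). The difference between ADU-S100 and Vehicle depended on the scaling, at -0.54 with each tumor scaled to the same median, -0.44 with quantile normalization and 0.019 with the log2 scaling factor as a term. That between the combination and ADU-S100 was 0.51, 0.44 and 0.14 under the same settings, and that between the combination and Vehicle was -0.029, -0.0076 and 0.16.

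Tgfbr2 encodes the type II receptor that binds the ligand. Its normalized counts were 6236, 4451 and 2168 in Vehicle tumors 1269, 1529 and 1536, and 3922, 2648 and 3688 in ADU-S100 tumors 1506, 1512 and 1513. They were 3491, 4716 and 3186 in Olaparib tumors 1510, 1517 and 1521, and 4748, 4881 and 3977 in combination tumors 1251, 1270 and 1539. The widest spread was among the Vehicle tumors, which held both the highest and the lowest value, and the combination tumors lay above every ADU-S100 tumor. Means were 4535 ± 488 with the combination, 4285 ± 2039 with Vehicle, 3798 ± 810 with Olaparib and 3420 ± 678 with ADU-S100 (SD, n = 3), and neighbours in this order overlapped. The combination differed from ADU-S100 by 0.42 (95% confidence interval -0.52 to 1.36, limma adjusted p = 0.702), and from Vehicle by 0.20 (-0.74 to 1.15, adjusted p = 0.989). The first was -0.0048 with the number series as a term, 0.25 without ADU-S100 tumor 1512, 0.61 with the log2 factor as a term and 0.63 with each tumor scaled to the same median, and the second ran from -0.22 without Vehicle tumor 1536 to 0.54 without Vehicle tumor 1269.

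Smad2 encodes a receptor-regulated SMAD. Values were 814, 462 and 709 in Vehicle tumors 1269, 1529 and 1536, and 524, 540 and 698 in ADU-S100 tumors 1506, 1512 and 1513. They were 347, 639 and 915 in Olaparib tumors 1510, 1517 and 1521, and 1046, 726 and 695 in combination tumors 1251, 1270 and 1539. All groups overlapped. Means were 822 ± 194 with the combination, 662 ± 181 with Vehicle, 634 ± 284 with Olaparib and 587 ± 95.9 with ADU-S100 (SD, n = 3), and the combination differed from Vehicle by 0.33 (95% confidence interval -0.62 to 1.27, limma adjusted p = 0.989). This was 0.089 without Vehicle tumor 1529, 0.12 with each tumor scaled to the same median, 0.14 without combination tumor 1251 and 0.50 without Vehicle tumor 1269.

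Smad3 encodes the other receptor-regulated SMAD, which unlike the main form of SMAD2 binds DNA directly. The normalized counts of Smad3 were 641, 871 and 459 in Vehicle tumors 1269, 1529 and 1536, and 1003, 823 and 715 in ADU-S100 tumors 1506, 1512 and 1513. They were 719, 1981 and 454 in Olaparib tumors 1510, 1517 and 1521, and 507, 683 and 585 in combination tumors 1251, 1270 and 1539. Tumor 1517 was far above all others, and every combination tumor lay below every ADU-S100 tumor. Means were 1051 ± 816 with Olaparib, 847 ± 145 with ADU-S100, 657 ± 206 with Vehicle and 592 ± 87.9 with the combination (SD, n = 3), with overlap between neighbours. The combination differed from ADU-S100 by -0.51 (95% confidence interval -1.64 to 0.62, limma adjusted p = 0.702), and from Vehicle by -0.11 (-1.24 to 1.02, adjusted p = 0.989). Over the alternatives the first ran from -0.63 without ADU-S100 tumor 1513 to 0.16 with the log2 scaling factor as a term, and the second from -0.35 without Vehicle tumor 1536 to 0.11 without Vehicle tumor 1529.

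Smad4 encodes the common partner of the receptor-regulated SMADs. In Vehicle tumors 1269, 1529 and 1536 its normalized counts were 1859, 1369 and 1748, and they were 1495, 1426 and 2123 in ADU-S100 tumors 1506, 1512 and 1513. They were 1553, 1258 and 2085 in Olaparib tumors 1510, 1517 and 1521, and 2290, 1895 and 1784 in combination tumors 1251, 1270 and 1539. All groups overlapped. Means were 1990 ± 266 with the combination, 1682 ± 384 with ADU-S100, 1659 ± 257 with Vehicle and 1632 ± 420 with Olaparib (SD, n = 3), and the combination differed from Vehicle by 0.27 (95% confidence interval -0.51 to 1.04, limma adjusted p = 0.989), and by 0.027 with quantile normalization, 0.061 with each tumor scaled to the same median, 0.13 without Vehicle tumor 1529 and 0.35 without Vehicle tumor 1269.

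Apart from Tgfb2, no member had an unadjusted p under 0.05 in any of the 8 limma comparisons, and no member passed after adjustment. In the combination against Vehicle, 6 members had a positive and 2 a negative difference, with a median of 0.21 against 0.21 over all genes. At an unadjusted p under 0.05, 0 of 8 members were called there against 7.69% of all genes. The same count was 0 of 8 for ADU-S100 against Vehicle (4.79% of all genes), for Olaparib against Vehicle (7.26%), for the combination against ADU-S100 (9.14%), for the average effect of ADU-S100 (3.05%) and for the average effect of olaparib (7.55%). The 8 members ranged from -0.82 to 0.40 on the log2 scale for ADU-S100 against Vehicle, from -1.51 to 0.44 for Olaparib against Vehicle, from -0.51 to 1.27 for the combination against ADU-S100 and from -0.56 to 1.95 for the combination against Olaparib. The average effects, each of 6 tumors against 6, ranged from -0.078 to 0.57 for ADU-S100 and from -0.33 to 0.18 for olaparib. In the combination against ADU-S100 the groups of 4 of 8 members did not overlap, 2 higher and 2 lower, against 31.3% of all genes (10.4% higher and 20.9% lower), and in Olaparib against Vehicle those of 0 members did not, against 4.79%. With each tumor scaled to the same median, the 1 member whose groups did not overlap in any of the 5 pairs of groups compared was Tgfb3, lower with Olaparib than with Vehicle, as 1.16% of all genes were. These comparisons share tumors and are not independent of each other.

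The median member lay below the median gene for both single treatments, at -0.06 against 0.44 for ADU-S100 against Vehicle and -0.10 against 0.45 for Olaparib against Vehicle. Scaling each tumor to the same median removes the shift of the median gene by construction, whatever its origin. It moves all genes of a tumor alike, so it does not close the gap between the members and the median gene. It left the median gene at 0.031 and 0.10 in these comparisons, at 0.0094 in place of 0.21 for the combination against Vehicle, and at 0.0030 in place of -0.55 for the interaction.

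**Figure D3:**
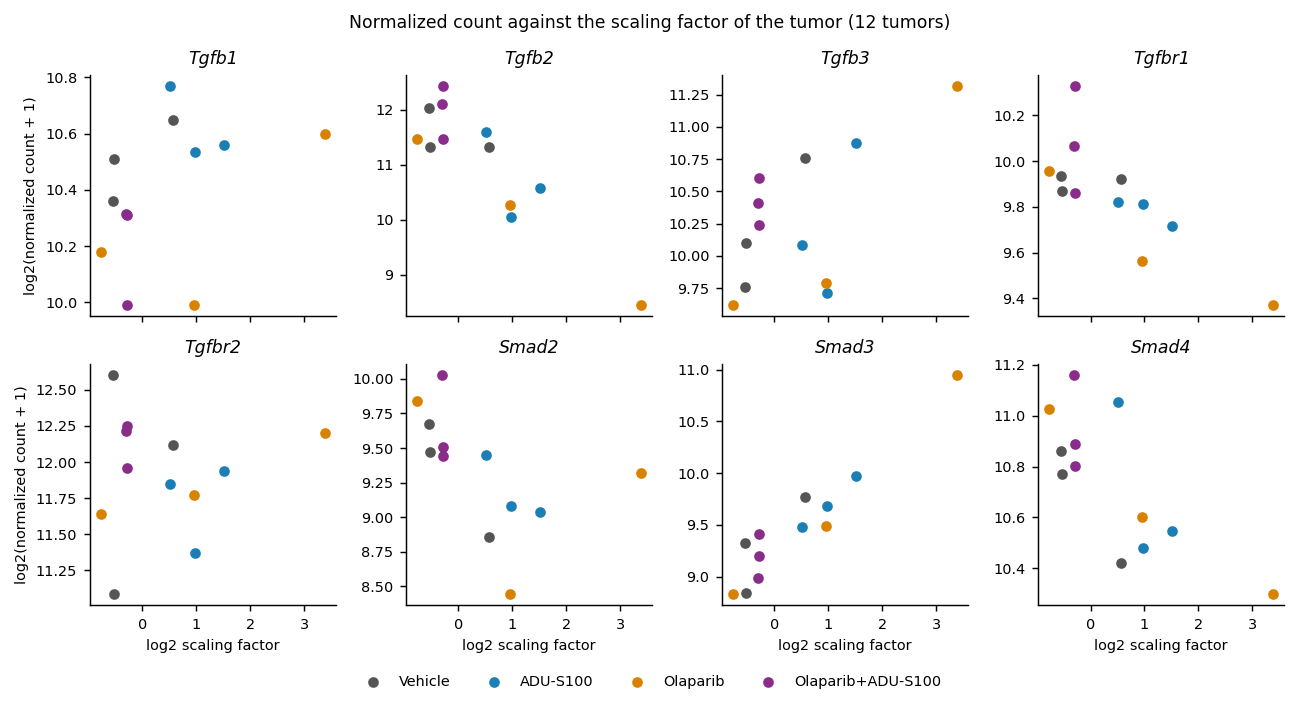
Log2(normalized count + 1) of each member (y axis) against the log2 scaling factor of the tumor (x axis), with 12 tumors colored by group. Olaparib tumor 1517 is the point at the far right, and Tgfb2 slopes down where Smad3 slopes up.

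Several members moved with the scaling factor, which multiplies the counts of a tumor to give its values. For Smad3 Pearson's r with the log2 factor was 0.95 (permutation p = 2e-05, adjusted over 72 relations 0.00144) and Spearman's rho 0.94 (permutation p = 2e-05, adjusted 0.00144), with r = 0.82 without the 2 tumors farthest from the median factor and 0.33 with each tumor scaled to the same median. For Tgfbr1 r was -0.79 (permutation p = 0.00202, adjusted 0.0182) and rho -0.81 (permutation p = 0.00221, adjusted 0.0398), with r = -0.56 without the same 2 tumors. With the group means removed they were 0.96 and -0.72, and over the 9 tumors numbered from 15 they were 0.98 and -0.80. For Tgfb2 r was -0.90 (permutation p = 0.00047, adjusted 0.011) and rho -0.70 (permutation p = 0.0142, adjusted 0.085), with r = -0.73 without these tumors and -0.90 over the 9. The value already contains the factor, the median r over all genes tested was 0.59, and 0.290% of genes had an r at or below that of Tgfb2 while 1.89% had one at or above that of Smad3. The part of the factor in the treatment comparisons was not tested beyond the fits that hold it as a term.

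**Figure D4:**
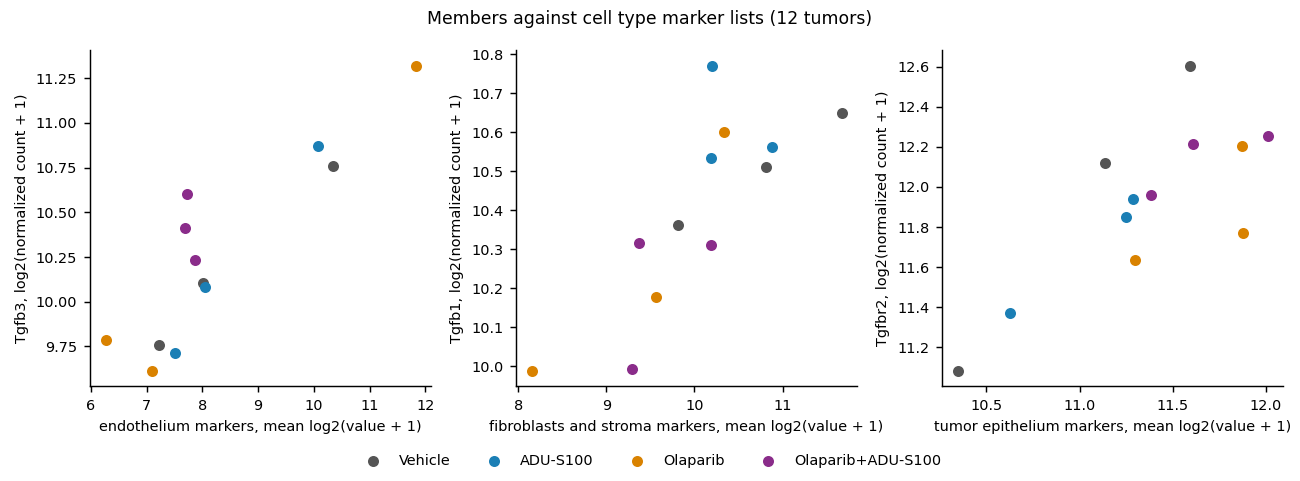
Log2(normalized count + 1) of Tgfb3, Tgfb1 and Tgfbr2 (y axes) against the mean log2(normalized count + 1) of endothelial, fibroblast and epithelial marker lists (x axes) in 12 tumors colored by group. In the first panel the 3 tumors to the right, 1517, 1529 and 1506, are also the 3 highest in Tgfb3 before scaling to the same median.

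Tgfb1 moved with the stromal markers. Over 12 tumors its r with the mean of Col1a1, Col3a1, Fap, Pdgfrb and Thy1 was 0.80 (permutation p = 0.00122, adjusted over 72 relations 0.015) and rho was 0.83 (permutation p = 0.00164, adjusted 0.0398), with r = 0.73 without the 2 tumors farthest from the median. It was 0.75 with the group means removed, 0.80 over the 9 tumors numbered from 15, and 0.57 with each tumor scaled to the same median. The summed stromal counts were 11857 to 22548 in combination tumors, 13748 to 66793 in Vehicle tumors, 26555 to 44936 in ADU-S100 tumors and 3540 to 18056 in Olaparib tumors. By the sum every combination tumor was below every ADU-S100 tumor, as in Tgfb1. Every Olaparib tumor was below them too, where Tgfb1 overlapped, and the combination overlapped Vehicle, where Tgfb1 did not. By the mean log2 value of the list, which the correlation uses, the combination and ADU-S100 groups overlapped, with combination tumor 1539 at 10.192 and ADU-S100 tumor 1512 at 10.188. Which part the stroma had in the Tgfb1 values was not tested. For Tgfbr2 and the epithelial markers r was 0.77 (permutation p = 0.00361, adjusted 0.026) and rho 0.64 (permutation p = 0.0303, adjusted 0.146), and r was 0.34 without tumors 1536 and 1512, the 2 farthest from the median of the list. It was 0.91 with the group means removed, 0.86 with each tumor scaled to the same median and 0.78 over the 9 tumors numbered from 15, all of which keep both of those tumors, so the relation rested on them, and rho did not pass after adjustment. The other 3 tumors, numbered from 12, are too few for a value of their own.

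The genes most like each member over the 12 tumors are given by Pearson's r of log2 values, as a description without a test, and all points share the scaling factor. Tgfb2 was most like Casp1 (0.96), which encodes the protease that activates interleukin 1β, then St6gal1 (0.93) and Psma2 (0.92). Casp1, St6gal1 and Psma2 had an r of -0.85, -0.79 and -0.86 with the log2 factor. Casp1 and St6gal1 were still the closest pair of Tgfb2 with each tumor scaled to the same median, but there the r of Tgfb2 with the factor was -0.96. Some other likenesses did not outlast that scaling, where Tgfb3 had an r of 0.27 with C4b and 0.37 with Foxp3, Smad3 had 0.43 with H2-Q2 and 0.44 with Hc, and the opposite course of Tgfb2 and Smad3 given below became -0.25. Tgfb3 was most like the kinase gene Jak1 (0.96), C4b (0.94) and Foxp3 (0.92), and Tgfb1 was most like Ncam1 (0.87), Ewsr1 (0.86) and Ets1 (0.86). Among the receptors, Tgfbr1 had Psmb7 (0.84) and Spp1 (0.83) among its closest genes, and Tgfbr2 was most like Creb5 (0.89), Kit (0.85) and Ifih1 (0.85). Smad3 was most like H2-Q2 (0.98), Itch (0.97) and Hc (0.96), all with an r of at least 0.90 with the log2 factor. Smad2 was most like Jun (0.83), Cd9 (0.82) and Litaf (0.80), and Smad4 had Tnfrsf12a (0.83) and Psma2 (0.82) among its closest. Within the members, Tgfb2 and Smad4 (0.79) and Tgfb2 and Tgfbr1 (0.74) were the most alike pairs, and Tgfb2 and Smad3 ran opposite (-0.79). With each tumor scaled to the same median the most alike pairs were instead Tgfbr1 and Smad4 (0.95) and Smad2 and Smad4 (0.93). That scaling subtracts the same median from all members of a tumor. Under it Tgfbr1, Smad4 and Smad2 had an r of -0.93, -0.88 and -0.81 with the log2 factor.

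Further genes of the pathway came from a list of 86, of which 28 were measured and all 28 tested. The list held 3 measured genes of ligand storage and activation (Itgb3, Thbs1 and Mmp9), the co-receptor Eng, 14 kinases and transcriptional partners such as Map3k7, Ep300 and Runx1, and 10 known targets. The listed inhibitors and the related ligands, receptors and SMADs were not analysed here. In the F test 0 of 28 passed after adjustment and 2 of 28 had an unadjusted p under 0.05, the matrix targets Col1a1 and Fn1, against 7.55% of all genes, which is near the share in the list. In the combination against Vehicle 0 of 28 were below 0.05 unadjusted, against 7.69% of all genes, 11 had a positive difference, and the median was -0.05, against 0.21 over all genes.

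Col1a1 encodes the main chain of type I collagen. Its normalized counts were 7802, 44394 and 30532 in Vehicle tumors 1269, 1529 and 1536, and 33138, 29769 and 18999 in ADU-S100 tumors 1506, 1512 and 1513. They were 2498, 13393 and 8575 in Olaparib tumors 1510, 1517 and 1521, and 7011, 6242 and 13797 in combination tumors 1251, 1270 and 1539. All 6 tumors given olaparib lay below the 3 ADU-S100 tumors and below Vehicle tumors 1529 and 1536, while Vehicle tumor 1269 lay among them. The tumors numbered from 12, Vehicle 1269 and combination 1251 and 1270, were thus all low. No fit with the number series as a term is given for Col1a1 or Fn1. The average effect of olaparib on Col1a1 was -1.69 on the log2 scale (standard error 0.52, unadjusted p = 0.00762, limma adjusted p = 0.529).

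Fn1 encodes fibronectin. Its mean normalized count was 10635 ± 7993 with Vehicle, 6101 ± 1724 with ADU-S100, 2005 ± 1038 with Olaparib and 2957 ± 1673 with the combination (SD, n = 3), and the average effect of olaparib was -1.67 (standard error 0.52, unadjusted p = 0.0076, limma adjusted p = 0.529). Vehicle tumor 1269 was low in Fn1 too, at 2658, as were combination tumors 1251 and 1270, also numbered from 12, at 2130 and 1857. Both genes are also made by fibroblasts, and Col1a1 is part of the stromal marker list above, so the count of 2 is not separate from the stromal values.

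**Figure D5:**
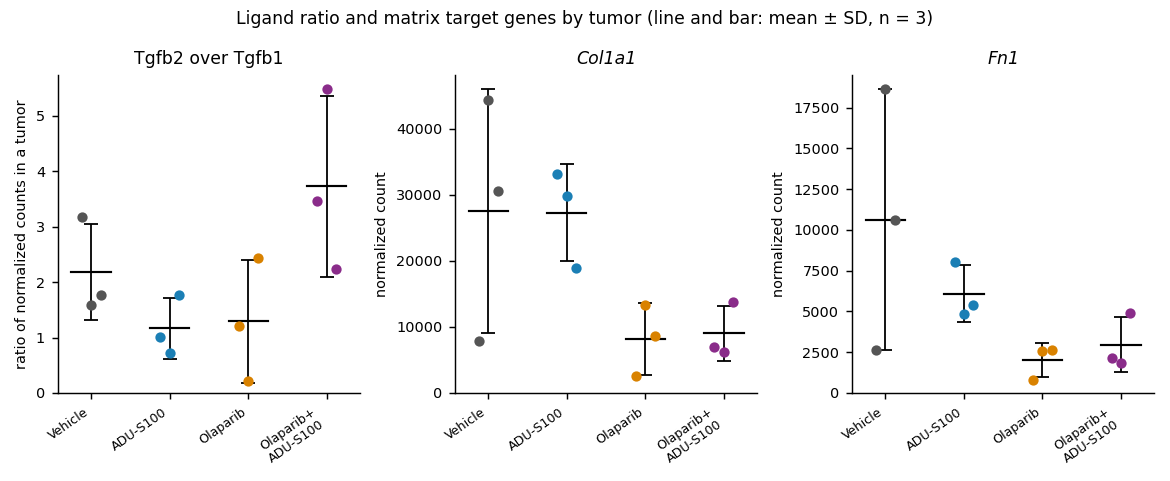
Ratio of Tgfb2 to Tgfb1 within a tumor, and normalized counts of Col1a1 and Fn1, by treatment group (linear axes from 0), with tumors as points and the mean ± SD of 3 tumors as a line and bar. The ratio is highest in combination tumor 1270 at 5.48 and lowest in Olaparib tumor 1517 at 0.223.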

How the data were processed

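Tumor RNA (100 ng) from 12 tumors was measured on the nCounter PanCancer immune panel. The deposited signal is linear: the authors corrected probe counts for background in nSolver and scaled them to positive controls and to housekeeping genes (their geometric mean), with a floor of 1. Neither step could be repeated, since control probes were not analysed here. The counts before scaling were recovered per tumor and used to describe depth only, and the precision they give covers counting error only. Groups came from the sample labels. Log2(normalized count + 1) of genes with at least 20 in at least 3 tumors (689 genes) was fitted with limma 3.58.1 in R 4.3.3 (lmFit and eBayes), with one mean per group over the 12 tumors. Contrasts and the moderated F test were adjusted by Benjamini-Hochberg over all 689 genes, with a threshold of 0.05. The fit was tested on simulated data. Where nothing says that tumors of one group came from separate donors, p-values measure the spread between these tumors. Correlations with the factor and 8 marker lists used 100000 permutations. Alternatives were another pseudocount, other filters, median scaling, quantile normalization, the number series or the log2 factor as a term, background subtraction, leaving out each tumor, and the methods' t-test. The members and gene lists were chosen with earlier results of these data known. The rule for named genes took all members, the 3 genes most like each, and pathway genes with an unadjusted p under 0.05 in the F test or the combination against Vehicle. One gene that this rule named is not reported here. Promoter stretches are from RefSeq.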

Additional observations from a re-analysis of the deposited data

Results flagged for a closer look

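The interaction of ADU-S100 and olaparib for Tgfb2 was 2.77 on the log2 scale (unadjusted p = 0.0163, limma adjusted p = 0.346), which drew attention because an interaction term of the fit carried the difference at the unadjusted level. The term compares 2 groups of 3 tumors with another 2, and its value was 1.97 without Olaparib tumor 1517 and 0.89 with the log2 scaling factor as a term.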

How the results depend on the processing

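Across 20 alternatives the F test of every member stayed above the threshold, and 2 of the 15 fold changes named for members passed it under 1 alternative each, both for Tgfb2 without Olaparib tumor 1521. The numbers of genes past the threshold, 0 in each comparison, ranged over the leave-one-out fits from 0 to 55 for Olaparib against Vehicle, 0 to 54 for the combination against Olaparib, 0 to 86 for the interaction and 0 to 6 for the F test, with every high value without Olaparib tumor 1521, and from 0 to 1 for the combination against ADU-S100, where the 1 came without ADU-S100 tumor 1506. For the combination against ADU-S100 the count was 1 with a pseudocount of 10, 1 with a filter at 50, 1 with median scaling and 1 with quantile normalization. For the combination against Vehicle it was 4 with the log2 scaling factor as a term and 3 by the methods' t-test once adjusted by Benjamini-Hochberg. That t-test called 0 members after adjustment, and before it called Tgfbr1 in ADU-S100 against Vehicle, where it called 50 of 689 genes, and Tgfb1 in the combination against ADU-S100, where it called 122 of 689 genes. The planned count tests on recovered counts were not run, since the check for whole counts from the smallest value failed in 7 of 12 tumors.

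Signs turned for differences of which none passed the test. In the combination against Vehicle, quantile normalization gave -0.026 for Tgfb3 and -0.0076 for Tgfbr1, median scaling gave -0.029 for Tgfbr1 and -0.00066 for Tgfbr2, and the number series as a term gave -0.0085 for Tgfbr2. Leaving out each tumor in turn gave -0.014 to 0.49 for Tgfb3, -0.22 to 0.54 for Tgfbr2 and -0.35 to 0.11 for Smad3, and with no change of sign -0.37 to -0.19 for Tgfb1, 0.23 to 0.71 for Tgfb2, 0.054 to 0.29 for Tgfbr1, 0.089 to 0.50 for Smad2 and 0.13 to 0.35 for Smad4. With the log2 factor as a term, Tgfbr1 in ADU-S100 against Vehicle was 0.019 and Smad3 in the combination against ADU-S100 was 0.16 in place of -0.51, and with the number series as a term Tgfbr2 in the latter comparison was -0.0048 in place of 0.42. The cause was not tested. With median scaling, an alternative chosen after seeing the data for the correlations, Smad3 with the factor went from 0.95 to 0.33 and Tgfb1 with stromal markers from 0.80 to 0.57, while the relation with the factor went from -0.90 to -0.96 for Tgfb2, from -0.79 to -0.93 for Tgfbr1, from -0.76 to -0.88 for Smad4 and from -0.49 to -0.81 for Smad2. It turned from 0.40 to -0.68 for Tgfb1, from 0.63 to -0.41 for Tgfb3 and from 0.09 to -0.72 for Tgfbr2. No paired analysis was possible because tumors carry no numbers shared between groups. The thinnest value of a member was the 33 recovered counts of Tgfb2 in tumor 1517.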
